A study of Rattus norvegicus with 12 samples.

Results

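The 9 genes described here encode transcription factors that specify and maintain liver and gut epithelium: the C/EBP factors Cebpa and Cebpb, the caudal factors Cdx1 and Cdx2, the zinc finger factor Gata4, the nuclear receptor Hnf4a, and the forkhead factors Foxa1, Foxa2 and Foxa3. They were chosen by symbol, and all 9 were found among the 21568 genes of a jejunal table and the 18703 genes of a liver table. Poly(A) RNA of Wistar Han rats, whose age is not given in the sources used here, was sequenced from both tissues. Rats of the antibiotics group were gavaged for 2 weeks with 5 mL/kg of a cocktail of the antibiotics ampicillin, metronidazole and neomycin sulfate (20 g/L of each) and vancomycin (10 g/L), to which amphotericin B, an antifungal, had been added (0.2 g/L). Rats of the group that the labels call wild type received saline instead, and all groups were housed in the same specific-pathogen-free facility. Each of the 4 groups (jejunum and liver, wild type and antibiotics) had 3 libraries, 12 in all. The labels do not say that the libraries came from separate rats, so p-values measure the spread between these libraries only. Nor do they say whether equally numbered jejunal and liver libraries share an animal.

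Identity factors bind enhancers and promoters of the genes that make a cell type what it is, and they often regulate each other. CEBPA, HNF4A and the FOXA factors act together in hepatocytes, where they drive genes for secreted plasma proteins and intermediary metabolism, while CEBPB also responds to inflammatory signals. In the small intestine CDX2 sets intestinal fate and HNF4A supports the absorptive enterocyte. GATA4 is high in duodenum and jejunum, where it holds back genes of ileal bile acid handling, and low in ileum.

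Promoters are shown for the genes on which the jejunal results turn (Cebpa, Cebpb and Cdx2) and for Hnf4a, the member with more than 1 annotated start. Each sequence is the 250 bases before a transcription start in RefSeq's GRCr8 assembly, read 5′ to 3′ on the strand of the gene, with capitals marking a match to a searched motif. RefSeq gave 8 such windows for 7 of the 9 genes, and Foxa1 and Gata4 had no entry. The windows printed, all on the plus strand, are chr1:96896334-96896583 for Cebpa, chr3:176816755-176817004 for Cebpb, chr12:12762654-12762903 for Cdx2, and chr3:172605970-172606219 and chr3:172641586-172641835 for the upstream and downstream starts of Hnf4a.
Cebpa: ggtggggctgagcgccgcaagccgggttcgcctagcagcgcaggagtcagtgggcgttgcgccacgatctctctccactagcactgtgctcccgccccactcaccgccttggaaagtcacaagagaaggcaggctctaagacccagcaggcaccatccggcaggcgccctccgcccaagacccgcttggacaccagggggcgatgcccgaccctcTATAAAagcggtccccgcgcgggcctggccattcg
Cebpb: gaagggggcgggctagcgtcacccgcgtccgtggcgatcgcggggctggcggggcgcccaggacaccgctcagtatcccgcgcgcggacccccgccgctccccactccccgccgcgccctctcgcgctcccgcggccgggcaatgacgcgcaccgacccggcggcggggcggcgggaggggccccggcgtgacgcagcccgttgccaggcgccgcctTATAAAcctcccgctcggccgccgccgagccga
Cdx2: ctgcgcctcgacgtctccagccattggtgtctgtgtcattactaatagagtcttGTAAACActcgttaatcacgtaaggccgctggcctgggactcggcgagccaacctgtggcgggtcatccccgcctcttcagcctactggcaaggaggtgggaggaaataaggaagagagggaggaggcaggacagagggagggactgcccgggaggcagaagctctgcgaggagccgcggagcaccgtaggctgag
Hnf4a upstream start: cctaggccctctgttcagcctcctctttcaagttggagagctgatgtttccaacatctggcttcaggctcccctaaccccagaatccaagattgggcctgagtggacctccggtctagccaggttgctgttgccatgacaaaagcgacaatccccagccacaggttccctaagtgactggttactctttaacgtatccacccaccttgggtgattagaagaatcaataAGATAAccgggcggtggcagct
Hnf4a downstream start: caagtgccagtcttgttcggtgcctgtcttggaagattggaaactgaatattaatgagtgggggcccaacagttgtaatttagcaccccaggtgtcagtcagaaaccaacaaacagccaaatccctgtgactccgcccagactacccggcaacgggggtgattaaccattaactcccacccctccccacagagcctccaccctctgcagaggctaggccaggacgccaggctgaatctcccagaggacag
The capitals in Cebpa and Cebpb are TATAAA, the TATA box letters, 35 and 33 bases before the start, a motif held by 12.9% of 33469 RefSeq windows of the same length. In Cdx2 they are GTAAACA, the reverse complement of the forkhead motif TGTTTAC, 196 bases before the start, and 3.21% of all windows hold it. Those of the upstream Hnf4a start are the GATA motif AGATAA, 22 bases before it and present in 10.3% of windows, while the downstream window held no match. The other motifs were searched on both strands as well: TTGCNNAA for C/EBP (9.22% of windows), CAAAGTCCA for HNF4 (0.338%) and TTTATG for CDX (11.4%). None of these had a match in the 8 windows. The counts are per gene, so they do not separate the Hnf4a starts.

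Library depth was 14592126 to 18322008 reads in jejunum and 15017775 to 19318616 in liver. Mitochondrial genes took 63.0%, 26.8% and 80.7% of reads in jejunal wild-type libraries 1, 2 and 3 and 64.8%, 51.3% and 38.7% in the antibiotics libraries. In liver their share was 25.0%, 6.42% and 16.0% in wild type and 3.60% to 4.48% with antibiotics. All 10 markers of epithelium were listed in the jejunal table and 9 of 10 hepatocyte markers in the liver table, none of them at 0 in every library. Jejunal antibiotics library 3 stood apart. Fabp6, the ileal bile acid binding protein, had a normalized count of 9108 in it and 14.4 to 119 in the other 5 jejunal libraries, and results that move with this library are given without it as well.

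The first comparison asked how the factors differed in jejunum between antibiotics and saline. All 9 had a lower fitted level with antibiotics, and 2 of them, Cebpa and Cebpb, fell past the threshold (limma adjusted p under 0.05). Among all 19450 genes tested, 0.519% fell past it and 0.761% rose, 1.28% in all. For 5 factors (Cebpa, Cebpb, Foxa2, Foxa3 and Cdx2) every antibiotics library lay below every wild-type library, against 11.3% of all genes tested. The median log2 fold change of the 9 was −1.33, and that of all genes was 0.06.

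Cebpa encodes C/EBPα, a leucine zipper factor that promotes differentiation and restrains division in liver, fat and myeloid cells. The files place it at chromosome 1, 91363492 to 91366164, in a genome build they do not name. Its normalized counts in wild-type jejunum were 2913, 2513 and 2787, and with antibiotics 602, 637 and 382. The groups did not overlap, and the spread within each was small beside the gap between them. Mean levels were 2738 ± 204 and 541 ± 138 (SD, n = 3 each), a log2 fold change of −2.37 (SE 0.27, 95% interval −2.97 to −1.77, limma adjusted p = 0.0108), or 5.17-fold lower. The adjusted p was 0.0748, 0.0505 and 0.0680 without antibiotics library 1, 2 or 3, and 0.264 with libraries scaled by their totals (log2 −1.87).

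Cebpb encodes C/EBPβ, a relative that binds the same sites and is induced by cytokines (chromosome 3, 164424515 to 164425910). Wild-type jejunum gave normalized counts of 1267, 933 and 1490.5, and antibiotics gave 538, 435 and 473. Again no antibiotics library reached the lowest wild-type library. The log2 fold change was −1.33 (SE 0.26, 95% interval −1.91 to −0.75, limma adjusted p = 0.0406), or 2.51-fold lower. This call was lost with a pseudocount of 0.1 (adjusted p = 0.0507), edgeR (0.0516), a correction for gene length (log2 −1.13, 0.0795) and library totals (−0.83, 0.771). It was also lost without wild-type library 3 (0.0824) or without antibiotics library 1, 2 or 3 (0.180, 0.127 and 0.190).

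In these bulk samples, fewer cells of a type and less RNA per cell cannot be told apart. Adipocytes express Cebpa, and all 10 adipocyte markers had a fitted fold change below 0 in jejunum, with 0 past the limma threshold. Their summed FPKM was 3232, 535 and 3895 in wild-type libraries 1, 2 and 3 and 538, 200 and 220 with antibiotics. The ranges overlapped. Epithelial markers summed to 1134, 2635 and 2062 in wild type and to 937, 1029 and 1235 with antibiotics, and smooth muscle markers to 5212, 1816 and 1798 and to 6056, 6464 and 6858. All 10 smooth muscle markers were above 0, and 3 rose past the limma threshold, where 0.761% of all genes tested rose. Kcnmb1 lost this call in 3 of 16 alternatives, Synpo2 in 6 and Lmod1 in 8. Of the 10 epithelial markers 0 passed. Myeloid markers summed to 7.06 to 26.7 FPKM in wild type and 11.7 to 14.1 with antibiotics, but single markers moved in opposite directions. Of the 10 tested, 7 were above 0 and 3 below. Mpo alone passed the threshold, with a log2 fold change of −3.09 (limma adjusted p = 0.0375), where 0.519% of all genes tested fell. It lost the call in 6 of 16 alternatives. The part of these cell types in the factor levels was not tested.

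Cdx2 encodes the caudal homeobox factor that sets intestinal fate (chromosome 12, 9464026 to 9470565). It had normalized counts of 2791, 4264 and 3181 in wild-type jejunum, against 1161, 2030.3 and 1036 in the antibiotics libraries. The groups did not overlap, yet the log2 fold change of −1.32 (SE 0.31, 95% interval −2.01 to −0.62) missed the threshold (limma adjusted p = 0.0630). It passed with DESeq2 (0.00756) and without wild-type library 1 (−1.45, 0.0250).

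Cdx1, the related caudal factor of crypt and lower villus (chromosome 18, 56338336 to 56355490), varied more. Its counts were 58.6, 507 and 372 in wild type, against 27.1, 32.2 and 157 with antibiotics. Wild-type library 1 lay between the antibiotics libraries, so the groups overlapped. The log2 fold change was −2.09 (SE 0.87, 95% interval −4.04 to −0.13, limma adjusted p = 0.203). It passed with DESeq2 (0.0452) and without wild-type library 1 (−3.04, 0.0324), and was −2.88 (0.228) without antibiotics library 3, which held the highest antibiotics value.

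Gata4 encodes the zinc finger factor of the proximal small intestine (chromosome 15, 46386712 to 46432965). Its jejunal counts were 253, 1031 and 925 in wild type, compared with 210.2, 312 and 45.3 with antibiotics. The lowest value of all 6 libraries was in antibiotics library 3, the library with the high Fabp6 count. Fgf19, an enterocyte hormone of the ileum, was at 45.3 in that library and at 0 in the other 5. Slc10a2, the ileal bile acid transporter, was at 41.6 there and at 0 to 4.52 elsewhere. Not all ileal genes stood apart: the bile acid exporter subunit gene Slc51a was at 2123 in antibiotics library 3, inside the wild-type range of 1761 to 2374, and at 712 and 969 in antibiotics libraries 1 and 2. Slc51b, its partner, was at 986 there and at 268 to 688 elsewhere. The log2 fold change of Gata4 was −2.10 (SE 0.76, limma adjusted p = 0.162) with this library and −1.28 (adjusted p = 0.354) without it, and with DESeq2 on all libraries it passed (0.0232).

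**Figure D1:**
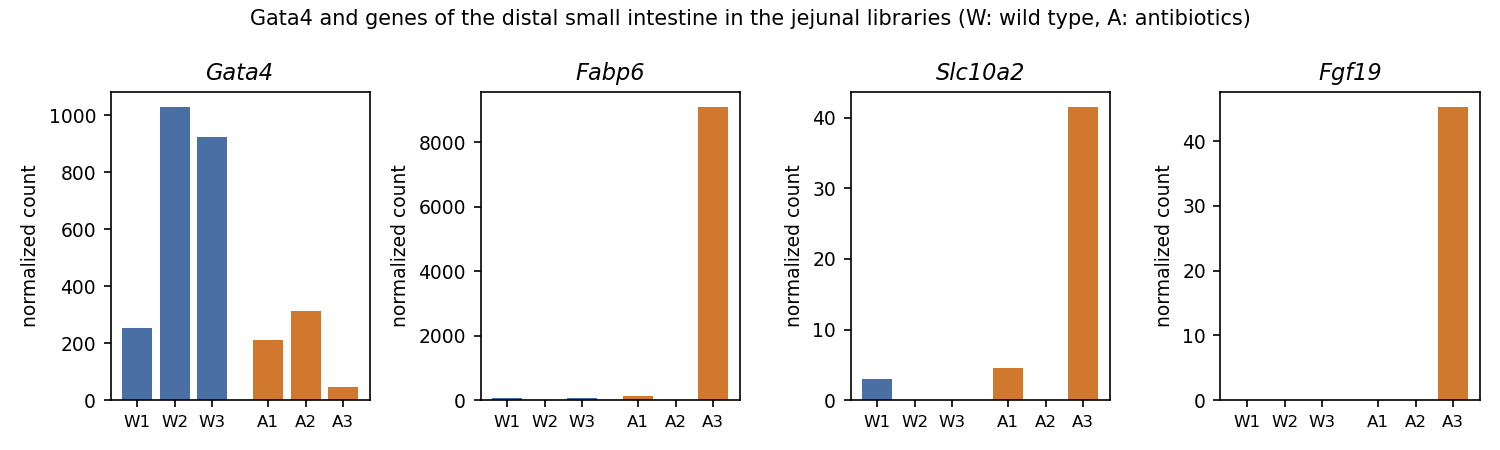
Normalized counts of Gata4 and of the ileal genes Fabp6, Slc10a2 and Fgf19 in the 6 jejunal libraries (W, wild type; A, antibiotics; 1 bar per library). Antibiotics library 3 holds the lowest Gata4 bar (45.3) and the highest bar of each ileal gene drawn (9108, 41.6 and 45.3).

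Hnf4a, a nuclear receptor shared by hepatocytes and enterocytes (chromosome 3, 159902441 to 159965003), did not pass the threshold in jejunum. Its counts were 882, 3460 and 3521 in wild type, against 816, 1075 and 2294 with antibiotics. Wild-type library 1 was near the lowest antibiotics library, and antibiotics library 3 was above it, so the groups overlapped. The log2 fold change was −0.81, with an interval from −2.04 to 0.43 (limma adjusted p = 0.422). Single libraries moved it: it was −1.47 (0.0506) without wild-type library 1, and leaving out antibiotics library 3 gave −1.24 (0.367). Leaving out wild-type library 2, wild-type library 3 or antibiotics library 1 gave −0.48, −0.47 and −0.49. All factors but Cebpa and Cebpb, 7 of 9, had their lowest wild-type value in library 1, which had the lowest epithelial and highest smooth muscle marker sum of the wild-type libraries.

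The forkhead factors open closed chromatin ahead of other factors. In jejunum Foxa1 and Foxa2 had the lowest levels of all members. Foxa2 (chromosome 3, 142383278 to 142387481) had counts of 26.3, 97.3 and 58.1 in wild type, compared with 9.04, 23.7 and 13.2 with antibiotics. The groups did not overlap, and the log2 fold change was −1.83 (95% interval −3.29 to −0.37, limma adjusted p = 0.147), past the threshold with DESeq2 only (0.0375). Foxa3 (chromosome 1, 79920752 to 79930263), which contributes to glucose and lipid control in liver, was at 268, 411 and 381 and at 174, 260.04 and 137. Its groups lay just apart, with a log2 fold change of −0.91 (−1.63 to −0.20, limma adjusted p = 0.142). Foxa1 (chromosome 6, 78545804 to 78549669) was at 1.01, 40.7 and 38.7 and at 3.39, 10.2 and 46.6, so its groups overlapped fully. Its log2 fold change of −0.17 had an interval of −2.97 to 2.62 and turned to 0.29 with library totals and to between 0.53 and 0.63 when wild-type library 2 or 3 or antibiotics library 1 was left out. Leaving out wild-type library 1 gave −1.62, antibiotics library 2 −0.05 and antibiotics library 3 −1.09. The deposited table puts Foxa2 on the plus strand and RefSeq's GRCr8 on the minus strand, and whether counting used strand is not given.

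The authors' deposited table lists 6 of the 9 factors as lower in jejunum at an adjusted p under 0.05, against 3.84% of its genes. In the authors' deposited table the adjusted p was 2.97e-11 for Cebpa, 0.00067 for Cebpb, 0.00756 for Cdx2, 0.0232 for Gata4, 0.0375 for Foxa2 and 0.0452 for Cdx1. The submitters' notes name DESeq2, and DESeq2 run here on the recovered reads gave these same values at the digits shown. Its calls therefore repeat the authors' test and are not a second line of evidence. Cdx2, Gata4, Foxa2 and Cdx1 were called by neither the main limma fit nor edgeR, though limma called Cdx2 and Cdx1 under some alternatives.

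**Figure D2:**
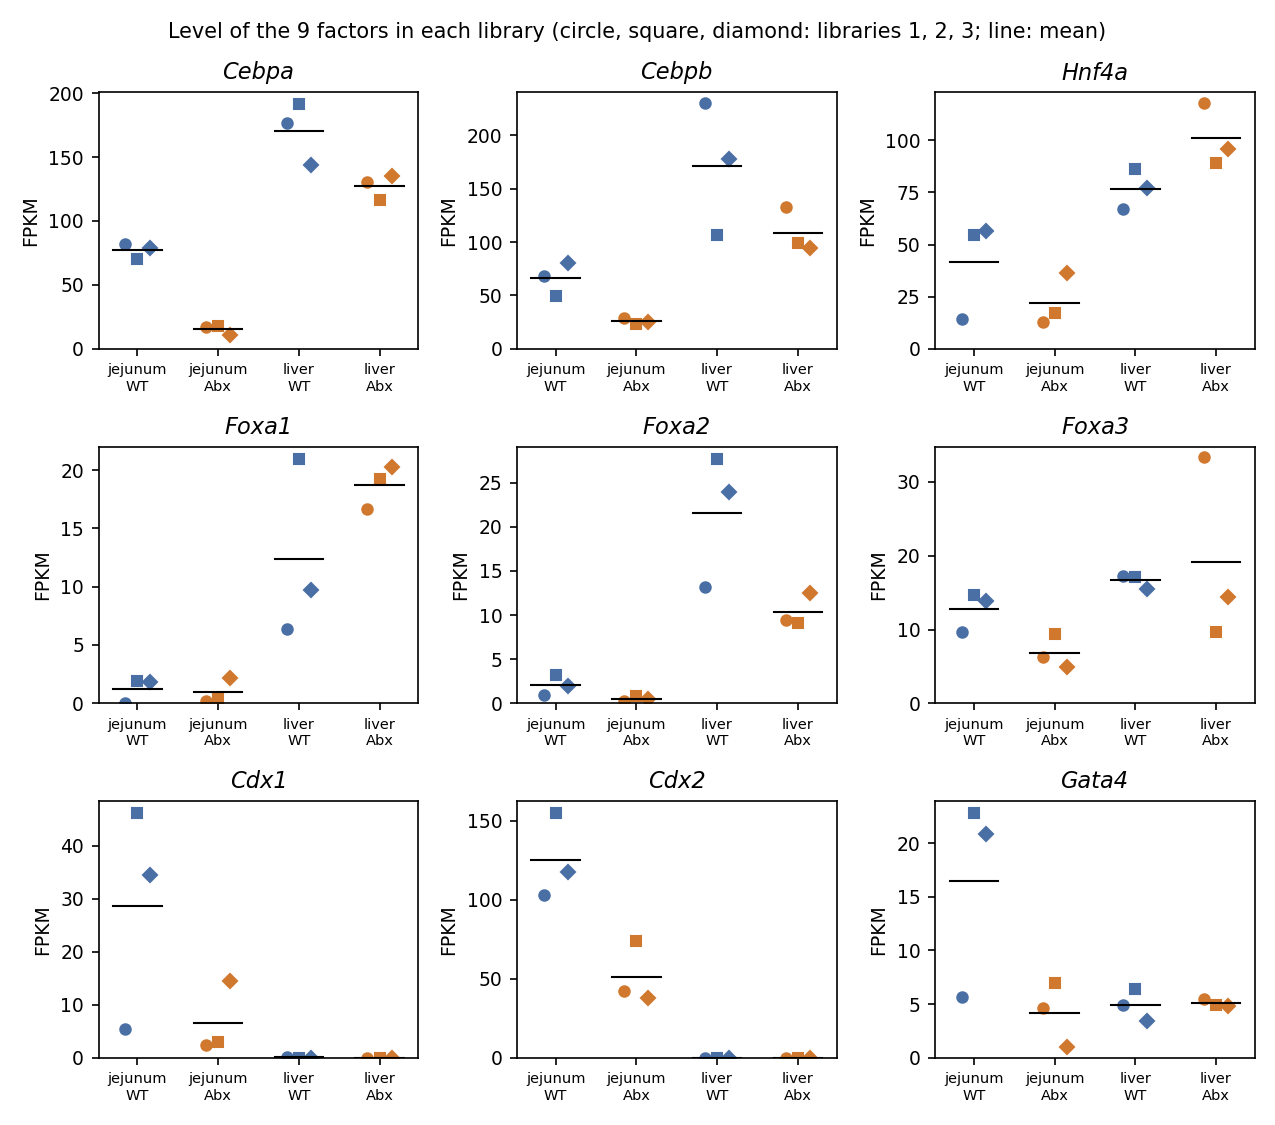
FPKM of each factor in each library of the 4 groups (WT, wild type; Abx, antibiotics; circle, square and diamond are libraries 1, 2 and 3, and the line is the mean). Cebpa, Cebpb, Cdx2, Foxa2 and, narrowly, Foxa3 separate the jejunal groups. Cebpa and Foxa2 (lower with antibiotics) and Hnf4a (higher) separate the liver groups, and both Cdx genes lie at or near 0 in liver. The tissues were normalized separately.

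The second comparison asked the same in liver, where 1 of the 8 factors tested, Foxa2, fell past the threshold and 0 rose. Among all 16540 liver genes tested, 4.89% fell past it and 12.8% passed in either direction. The 8 include Cdx2, which had 5 reads in wild-type library 2 and 0 or 1 in each other liver library. With so few factors, 1 call is not read as a result about them as a set. Every antibiotics library lay below every wild-type library for 2 factors, Cebpa and Foxa2 (18.1% of all genes tested), and above it for 1 factor, Hnf4a (19.7%). Cdx1 was too low to test.

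Foxa2 guides hepatic responses to fasting and bile acids. Its liver counts were 466, 983 and 848 in wild type, against 337, 320.03 and 443 with antibiotics. The highest antibiotics library came close to the lowest wild-type library without reaching it. Mean levels were 766 ± 268 and 367 ± 67.0 (SD, n = 3 each), a log2 fold change of −1.01 (SE 0.28, 95% interval −1.63 to −0.38, limma adjusted p = 0.0438), or 2.01-fold lower. The authors' deposited table gives an adjusted p of 0.00793 for it, and lists 7.36% of liver genes as lower at that threshold. Leaving out wild-type library 3 ended the limma call (log2 −0.90, adjusted p = 0.166), as did leaving out antibiotics library 1, 2 or 3 (0.121, 0.130 and 0.0844) and scaling by library totals (−0.85, 0.140).

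The other forkhead factors did not pass the threshold in liver. Foxa1 was at 163, 538 and 249 in wild type, against 428, 493 and 519.9 with antibiotics, so that wild-type library 2 exceeded all antibiotics libraries. Its log2 fold change was 0.77 (95% interval −0.12 to 1.67, limma adjusted p = 0.213). Leaving out wild-type library 2 gave 1.25 (adjusted p = 0.00194). Foxa3 was at 573, 569 and 512 in wild type, compared with 1108, 322 and 477 with antibiotics. Antibiotics library 1 was far above the other 5 libraries of that gene, and the log2 fold change of 0.01 (limma adjusted p = 0.990) became −0.49 (0.233) without it and −0.04 without wild-type library 3.

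Cebpa in liver had counts of 7504, 8168 and 6127 in wild type, against 5565, 4947 and 5756 with antibiotics. The groups did not overlap, but the log2 fold change of −0.41 (95% interval −0.88 to 0.05) missed the threshold (limma adjusted p = 0.205). Cebpb was at 5121, 2371 and 3953 and at 2956, 2201 and 2099.85, with wild-type library 2 inside the antibiotics range. Its log2 fold change was −0.60 (−1.25 to 0.04, limma adjusted p = 0.182). Leaving out wild-type library 2 gave −0.91 (adjusted p = 0.0177). Hnf4a was at 5028, 6468 and 5780.3 and at 8882, 6694 and 7216, higher in every antibiotics library, with a log2 fold change of 0.40 (−0.09 to 0.88, limma adjusted p = 0.238).

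Gata4 in liver was at 262, 341 and 184 in wild type, compared with 294, 263 and 260.3 with antibiotics, which lay inside the wild-type range. Its log2 fold change was 0.10 (95% interval −0.43 to 0.62, limma adjusted p = 0.813), and the sign turned with a correction for gene length (−0.0455) and without wild-type library 3 (−0.14). Cdx2 had a normalized count of 5.11 in wild-type library 2 and of 0 to 0.996 in the other 5 liver libraries, and Cdx1 of 2.55 in wild-type library 1 and 0 elsewhere. A count of 0 allows up to 3 reads per library, for counting error only, so no fold is given for either gene.

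Of the summed levels of cell type markers in liver, those of Kupffer cells, stellate cells, epithelium and pancreatic acinar cells did not overlap between the groups. Those of hepatocytes, sinusoidal endothelium, myeloid cells, cholangiocytes, adipocytes and smooth muscle did. Epithelial markers summed to 427 to 494 FPKM in wild type and to 339 to 357 with antibiotics, and acinar markers to 16.8 to 44.0 and to 6.07 to 10.6. Summed FPKM of 9 hepatocyte markers was 59742, 44815 and 56620 in wild type, against 48101, 28508 and 26721 with antibiotics. Kupffer cell markers summed to 235 to 344 and to 164 to 197, stellate cell markers to 31.5 to 44.2 and to 53.7 to 60.8, and sinusoidal endothelial markers to 51.1 to 71.7 and to 69.1 to 84.8. Myeloid markers summed to 83.6 to 308 in wild type and to 164, 240.3 and 2739 with antibiotics. Lcn2, a neutrophil and acute phase protein, is among them. Its normalized counts were 2.55, 3362.5 and 14.8 in wild type, against 744, 924 and 37373 with antibiotics. The part of these liver cell types in the factor levels was not tested.

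**Figure D3:**
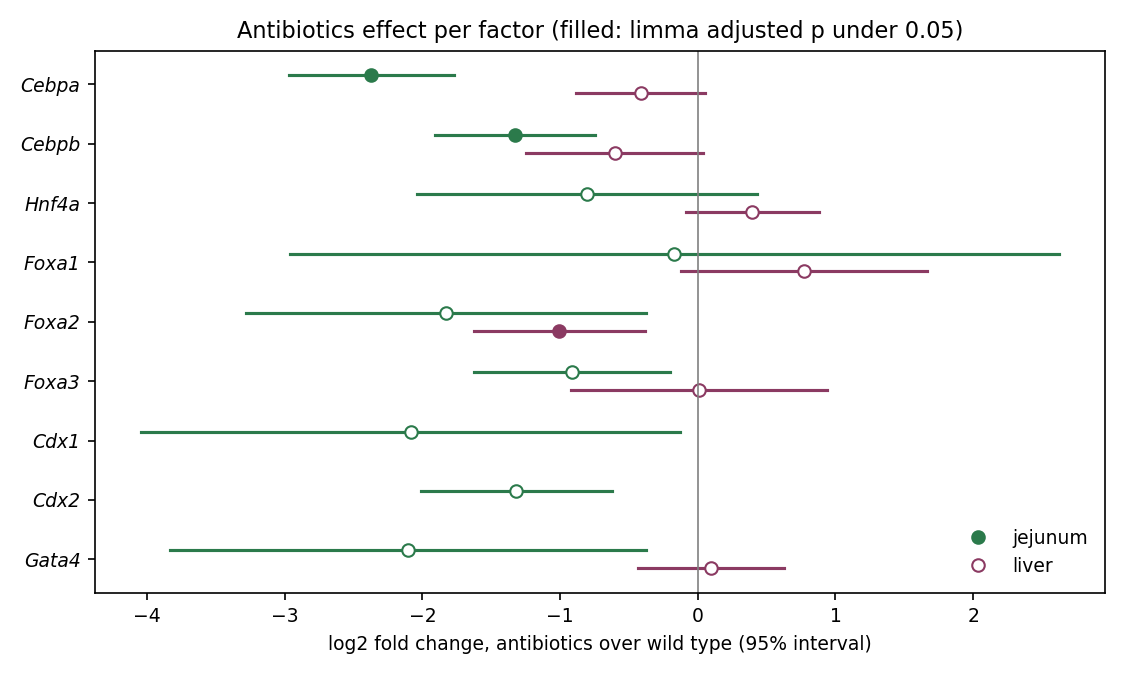
Log2 fold change of each factor, antibiotics over wild type, with its 95% limma interval, in jejunum and liver (filled points: adjusted p under 0.05). Cebpa (−2.37) and Cebpb (−1.33) are filled in jejunum and Foxa2 (−1.01) in liver. The Cdx genes are left out in liver for lack of reads.

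The third comparison asked whether the response of a factor differed between tissues, as the liver effect minus the jejunal effect. Cdx1 and Cdx2 are left out here for lack of liver reads, and of the other 7 factors only Cebpa passed: the difference was 1.96 on the log2 scale (SE 0.33, 95% interval 1.26 to 2.65, limma adjusted p = 0.0343), from −2.37 in jejunum and −0.41 in liver. Over all 14721 genes tested, 0.571% differed, and 0.346% did so in this direction. The adjusted p exceeded the threshold with edgeR (0.0555) and library totals (log2 1.61, 0.509). It also did without jejunal antibiotics library 1 or 3 (0.0709 and 0.0552), liver wild-type library 1 or 3 (0.0779 and 0.112) or liver antibiotics library 1, 2 or 3 (0.0895, 0.106 and 0.0568).

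Gata4 had a larger but less certain difference, 2.20 (SE 0.91, 95% interval 0.22 to 4.18), with an unadjusted p of 0.0323 and a limma adjusted p of 0.205. Hnf4a differed by 1.20 (adjusted p = 0.329 by limma), and by 1.86 without jejunal wild-type library 1 (0.0403). Estimates for Cebpb (0.72), Foxa1 (0.95), Foxa2 (0.82) and Foxa3 (0.92) had intervals that included 0. For Foxa2, called in liver alone, this means that no difference between the tissues was shown (interval −0.56 to 2.21).

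Levels per gene length, as FPKM, place Cdx2 first in wild-type jejunum at 125 ± 26.8 (SD, n = 3). It was followed by Cebpa at 77.0 ± 6.36, Cebpb at 66.3 ± 15.6, Hnf4a at 41.7 ± 23.9, Cdx1 at 28.7 ± 21.0, Gata4 at 16.5 ± 9.38 and Foxa3 at 12.8 ± 2.66. Foxa2 (2.04 ± 1.18) and Foxa1 (1.25 ± 1.04) were lowest. Of neighbours in this order, only Cdx2 and Cebpa, and Foxa3 and Foxa2, did not overlap between libraries. With antibiotics Cdx2 stayed first at 51.3 ± 19.7 FPKM, and Cebpa stood at 15.1 ± 3.85, below Cebpb at 25.8 ± 2.78 and Hnf4a at 22.1 ± 12.5, of which Hnf4a overlapped it.

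Wild-type liver had Cebpb at 172 ± 62.1 FPKM and Cebpa at 171 ± 24.4, which overlapped, then Hnf4a at 76.6 ± 9.57, apart from its neighbours on both sides. Foxa2 (21.6 ± 7.56), Foxa3 (16.6 ± 1.02), Foxa1 (12.3 ± 7.66) and Gata4 (4.91 ± 1.47) followed, each overlapping the next, and Cdx1 and Cdx2 were at 0.0653 and 0.0521. With antibiotics Foxa2, at 10.3 ± 1.88, lay below Foxa1 at 18.7 ± 1.85 with no overlap. The tissues' tables were normalized separately, so differences in level between jejunum and liver were not tested.

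Ratios of factors within a library do not depend on its scaling. They were chosen after the values were seen and carry no test, since the smallest exact permutation p that 3 against 3 libraries allow is 0.10. In jejunum the Cebpa to Cebpb ratio of FPKM was 1.20, 1.41 and 0.977 in wild type, compared with 0.585, 0.764 and 0.422 with antibiotics, without overlap. Per 1000 FPKM of epithelial markers, Cebpa was at 72.5, 26.5 and 38.2 and at 18.0, 17.3 and 8.65, also without overlap, as was Foxa2 (0.786 to 1.23 and 0.324 to 0.773). On the same scale Cdx2 overlapped (56.9 to 90.6 and 30.6 to 71.8), as did Cebpb (18.8 to 60.4 and 20.5 to 30.7), Hnf4a (12.4 to 27.3 and 13.8 to 29.4) and the remaining factors. In liver the Foxa2 to Foxa1 ratio was 2.07, 1.32 and 2.47 in wild type, against 0.569, 0.470 and 0.618 with antibiotics, and Cebpa to Hnf4a was 2.64, 2.23 and 1.87 and 1.11, 1.31 and 1.41. Neither of these liver ratios overlapped between groups, while the other liver ratios formed did (Cebpa to Cebpb, Foxa2 to Foxa3 and Foxa1 to Foxa3). Among the other jejunal pairs, Foxa2 to Foxa3 did not overlap, and Foxa2 to Foxa1, Foxa1 to Foxa3, Cdx1 to Cdx2 and Cebpa to Hnf4a did. The share of ratios without overlap over other gene pairs was not computed.

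**Figure D4:**
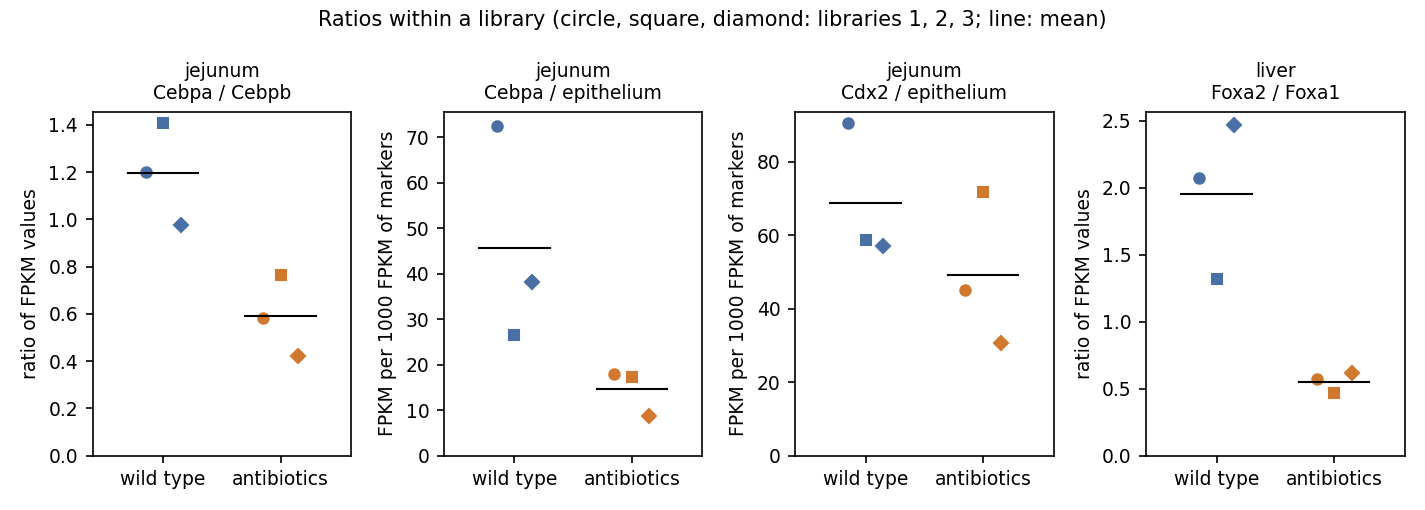
Ratios of FPKM within each library by group (symbols are libraries 1, 2 and 3; the line is the mean). Cebpa over Cebpb and Cebpa per 1000 FPKM of epithelial markers are lower in every antibiotics library of jejunum, Cdx2 per 1000 FPKM of epithelial markers overlaps, and Foxa2 over Foxa1 in liver is 1.32 to 2.47 in wild type and 0.470 to 0.618 with antibiotics.

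Other genes of the same networks were counted in lists. Of 20 further liver factors tested in jejunum, 1 fell and 0 rose (median log2 −0.48), where 0.519% of all genes tested fell and 0.761% rose. The gene that fell was Srebf1, which drives lipid synthesis, at 1983, 1121 and 1032 in wild type, compared with 388, 385 and 299 with antibiotics (log2 −1.89, limma adjusted p = 0.0291). It lost the call without antibiotics library 1, 2 or 3 (0.163, 0.0922 and 0.168) and with library totals (−1.39, 0.481). Of 23 further gut factors, 22 were below 0 (median −0.81) and 0 passed. The median of all jejunal genes tested was 0.06, and their share below 0 was not computed. Those of smallest p were Ascl2 of crypt stem cells (log2 −2.35, limma adjusted p = 0.0544) and Sox9 of the crypt (−1.92, 0.0782).

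Among the other C/EBP relatives in jejunum, 0 of 5 passed (median −0.72). Cebpg, a partner of other leucine zipper factors, was at 1687, 1936 and 2015 in wild type, against 1279, 1308 and 887 with antibiotics (log2 −0.72, limma adjusted p = 0.147), and Ddit3, which blocks C/EBP binding under stress, had a log2 fold change of −0.85 (0.206). Of 16 cofactors 0 passed (median 0.44). Smallest in p were Ppargc1a, a coactivator of HNF4A (log2 1.72, limma adjusted p = 0.0714), and Zfpm1, a partner of GATA factors (−1.27, 0.0933).

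Target genes of the factors gave no calls in jejunum. For 23 genes that the factors drive in liver the median was −0.49, with Rbp4, the retinol carrier, at −2.64 (limma adjusted p = 0.0986). Ambp, a plasma protein precursor, had counts of 0 to 1.38 in wild type and 4.52 to 18.6 with antibiotics (0.127). For 28 gut targets the median was −0.52, with Ihh, a villus signal, at −1.30 (limma adjusted p = 0.129) and Myo1a, a brush border motor, at −0.94 (0.159). The 10 epithelial markers had a median of −0.81 with 0 past the threshold.

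In liver, most calls in the lists of factors were rises. Among 22 further liver factors 4 rose and 1 fell (median 0.19), where 7.93% of all genes tested rose and 4.89% fell. Ppara, the fatty acid sensor, was at 30.6, 61.3 and 63.9 in wild type, compared with 198, 112 and 332 with antibiotics (log2 1.96, limma adjusted p = 0.0225). Onecut2, a factor of hepatobiliary development, rose by 1.73 on the log2 scale (limma adjusted p = 0.0327) and Prox1, a repressor partner of HNF4A, by 0.82 (0.0401). Nr1i2, the xenobiotic sensor PXR, fell from 2541, 1816 and 2755 to 1306, 980.2 and 1407 (log2 −0.94, limma adjusted p = 0.0290). Rxra, the partner of many nuclear receptors, rose by 2.93 on the log2 scale (limma adjusted p = 0.0438). Each of these 5 calls was lost without liver wild-type library 3 (adjusted p 0.0829, 0.127, 0.160, 0.132 and 0.124 in the order named), and those of Prox1 (0.117) and Rxra (0.0530) also under the correction for gene length.

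Of 18 further gut factors in liver, 3 rose and 0 fell (median 0.19), against 7.93% and 4.89% of all genes tested. Hnf4g, the intestinal relative of Hnf4a, was at 10.2, 23.5 and 4.56 in wild type, against 61.7, 46.1 and 57.0 with antibiotics (log2 2.27, limma adjusted p = 0.0243). Elf3, an epithelial ETS factor, rose by 1.68 on the log2 scale (limma adjusted p = 0.0246). Ehf, another ETS factor, was at 0, 3.06 and 0 in wild type, compared with 8.96, 10.9 and 6.002 with antibiotics (limma adjusted p = 0.0447). It lost the call in 9 of the 14 alternatives that gave a value, DESeq2 (0.0909) among them. With 1 liver library left out, the adjusted p of Ehf reached at most 0.153. Without liver wild-type library 3 the adjusted p was 0.0917 for Hnf4g and 0.0725 for Elf3.

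Cofactors were the other liver list with several rises, 4 of 16, and 0 fell (median 0.29), against the same 7.93% and 4.89% of all genes. Ep300, a histone acetyltransferase that many factors recruit, was at 12.7, 13.3 and 22.8 in wild type, against 54.8, 61.2 and 124 with antibiotics (log2 2.18, limma adjusted p = 0.0137). The corepressor Ncor1 rose by 0.89 (limma adjusted p = 0.0189), and the coactivators Ncoa3 and Ncoa2 by 1.77 (0.0263) and 2.23 (0.0268). With 1 liver library left out, the adjusted p reached at most 0.0633 for Ep300, 0.101 for Ncor1, 0.108 for Ncoa3 and 0.110 for Ncoa2. Of the C/EBP relatives 0 of 5 passed (median −0.04).

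Among 29 liver targets of the factors, 7 fell and 2 rose in liver (median −0.32), where 4.89% of all genes tested fell and 7.93% rose. Apoa2, an apolipoprotein of HDL, was at 49486, 19878 and 48837 in wild type, against 7214, 8389 and 9049.8 with antibiotics (log2 −2.15, limma adjusted p = 0.00941). Otc of the urea cycle fell by 1.37 on the log2 scale (limma adjusted p = 0.0146) and Apoc3, an apolipoprotein of triglyceride-rich particles, by 1.45 (0.0192). With 1 liver library left out, the adjusted p reached at most 0.0672 for Apoa2, 0.0758 for Otc and 0.0908 for Apoc3. Of 19 gut targets tested, 2 rose and 1 fell (median 0.39). Gucy2c, the guanylin receptor, was at 1.27, 3.06 and 2.28 in wild type, compared with 169, 151 and 72.0 with antibiotics (limma adjusted p = 0.00177), and it passed under all 16 alternatives run. Fabp1 and Apob, which are in both target lists, moved in opposite directions, by −1.05 (limma adjusted p = 0.0224) and 0.97 (0.0438), and neither passed under the correction for gene length (0.130 and 0.174).

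**Figure D5:**
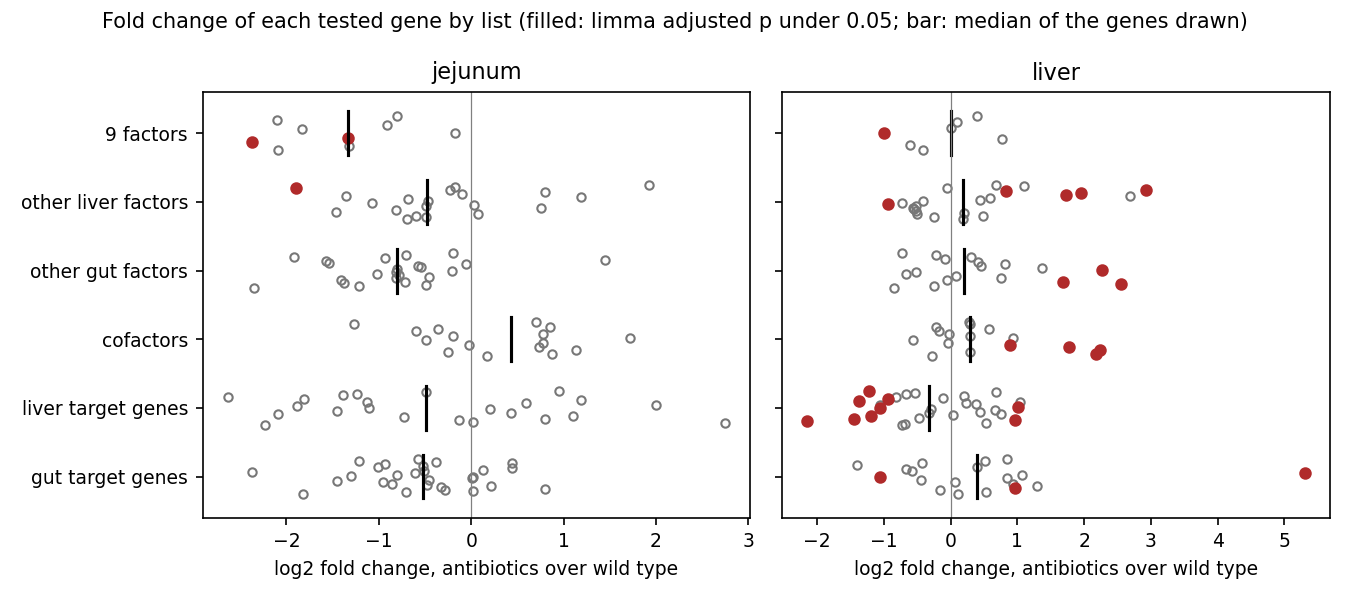
Log2 fold change of each tested gene in 6 lists, jejunum on the left and liver on the right (filled: limma adjusted p under 0.05; bar: median of the genes drawn, with the Cdx genes left out in liver). In jejunum 2 of the 9 factors and Srebf1 are filled, all to the left of 0, while in liver further factors and cofactors are filled mostly to the right.

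By the family names in the deposited tables, Cebpa and Cebpb were the 2 of 50 leucine zipper genes that fell in jejunum, where 0 rose by limma. Of 25 forkhead genes tested there 0 fell and 1 rose (Foxp2), and of 91 homeobox genes 0 fell and 1 rose (Meis2). In liver Foxa2 was the 1 of 21 forkhead genes that fell, while Foxo3, Foxo1, Foxn3 and Foxk2 rose. Of all rows with a transcription factor family, 0.503% fell past the limma threshold in jejunum and 3.39% in liver. Among all genes tested, 0.761% rose past it in jejunum and 7.93% in liver.

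Across the 6 jejunal libraries, which share the group difference, some pairs of factors varied together and others did not. Over all pairs, Pearson's r of log2 values ran from −0.08 for Cebpa and Foxa1 to 0.973 for Foxa3 and Cdx2. It was 0.944 between Cebpa and Cebpb, 0.324 between Cebpa and Hnf4a, 0.127 between Foxa1 and Gata4, 0.963 between Hnf4a and Cdx1, and 0.955 between Foxa3 and Gata4. In liver Cebpb and Foxa1 ran against each other (r = −0.975 over 6 libraries). Of 9107 jejunal genes with a mean of at least 100, those most like Cebpa were Rpsa (r = 0.999), Selenom (0.997) and Psmb1 (0.993). Cebpb was most like Cdc42ep1 (0.996), Acad10 (0.993) and Txnrd2 (0.991), and Hnf4a most like Ccdc115 (0.994), Gak (0.991) and Myo1d (0.989). Of 7689 liver genes, Dhx16 (0.982), Prorp (0.976) and Cited2 (0.951) were most like Cebpa, Luc7l (0.988), Grb7 (0.986) and Fam53a (0.984) most like Cebpb, and Clcc1 (0.992), Bicd2 (0.990) and Epas1 (0.988) most like Hnf4a. These correlations are over 6 libraries of 2 groups and were picked from all the genes searched, so they only describe these libraries.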

How the data were processed

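The 12 libraries were made from poly(A) RNA and read from both ends, per the labels' protocols. Tools in the submitters' processing notes are DESeq2 1.20.0, HISAT2 2.0.5 and CASAVA 1.4; genome build, counting tool and strand use are not given in the sources used here. Each tissue has its own deposited table, normalized separately. Its count columns hold the authors' normalized signal: reads divided by 1 factor per library (100% of values were whole within 0.01 reads once multiplied back). The authors' deposited FPKM is that value per gene length. Log2 fold changes and p-values of the authors' own comparison were deposited too.

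The design named edgeR for whole counts and limma otherwise; the deposited counts were not whole, so limma 3.58.1 was run (R 4.3.3; trend, robust). It used log2(normalized count + 1) of genes averaging 1 or more, fitted each tissue alone, adjusted p by Benjamini-Hochberg over all genes and called those under 0.05. Fold changes are on that scale, which understates those of low genes. The difference between tissues was an interaction in all 12 libraries. Alternatives were no filter, a filter of 10, pseudocounts of 0.1 and 5, a replicate block, library totals, TMM, edgeR 4.0.16, DESeq2 1.42.0, a lowess correction for gene length (span 0.3) and each library left out. The tests were tested on simulated data.

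All 9 factors are named; of each other list, up to 4 genes past the threshold by smallest p, or else the 2 of smallest p (1 gene so chosen is not reported here). The factors and lists were chosen with earlier results of these data known.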

Additional observations from a re-analysis of the deposited data

Results flagged for a closer look

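The response of Cebpa to antibiotics differed between the tissues by 1.96 on the log2 scale (limma adjusted p = 0.0343 for the difference itself), with 2738 ± 204 and 541 ± 138 normalized counts in jejunum and 7267 ± 1041 and 5423 ± 423 in liver (wild type and antibiotics, SD, n = 3 each). In liver alone the change did not pass (log2 −0.41, 95% interval −0.88 to 0.05, limma adjusted p = 0.205). Adipocyte markers summed to 535 to 3895 FPKM in wild-type jejunum and to 200 to 538 with antibiotics; their part in the difference was not tested.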

How the results depend on the processing

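Among 249 jejunal, 2121 liver and 84 difference calls, jejunal calls numbered 160 with a pseudocount of 0.1, 59 with library totals, 97 with edgeR, 37 after the correction for gene length and 1772 with DESeq2. Differences numbered 8 with edgeR and 141 with a pseudocount of 5. With library totals the jejunal split was 55 higher and 4 lower (148 and 101 otherwise), the liver split 1116 and 414 (1312 and 809), and the median of all genes moved to 0.51 and 0.14; 9 of 9 and 4 of 8 factors were below that median. Leaving out 1 library gave 1 to 1902 jejunal, 74 to 4416 liver and 3 to 900 difference calls.

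With the replicate number as a block there were 1625 jejunal, 1779 liver and 244 difference calls, and Cdx2 (adjusted p = 0.00813) and Cdx1 (0.0460) passed in jejunum. In liver, Prox1 (0.0640) and Apob (0.0842) lost their calls. The deviations of same-numbered libraries had correlations of 0.236, 0.280 and 0.0868 in jejunum, where different numbers gave −0.232 to 0.0340 and every library correlated best with its own number. This is a hint from the data and not from the design, since the labels name no shared animal or batch and not every pair exceeded 0.1. In liver they were 0.118, −0.149 and −0.189. The numbers were therefore not taken to pair the samples.

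The sign turned for Foxa1 in jejunum with library totals (0.29; −1.62 to 0.63 with a library left out), for Gata4 in liver after the length correction (−0.0455; −0.14 to 0.31) and for Foxa3 in liver with a library left out (−0.49 to 0.40); the cause was not tested. For the factors, 120 of 144 jejunal, 101 of 112 liver and 116 of 126 difference values kept direction and side of the threshold under the alternatives run. Both Cdx genes in liver had too few reads for a fold at this depth.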
